A study of Mus musculus with 9 samples.

Results

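The genes described here are the chromatin modifier and remodeller genes whose symbols begin with Kdm, Kmt, Hdac, Dnmt, Smarc, Chd, Setd, Arid or Prmt followed by a digit (for Smarc, by a letter), together with Tet1 to Tet3, Ezh1 and Ezh2. They were chosen by symbol alone, with Kdm5d left out, which gave 97 of the 18329 genes measured. Of the 97, 94 reached 1 CPM (the authors' normalized read count, scaled to the library total) in at least 3 of the 9 libraries and entered the tests, as did 16143 of all genes. The 3 genes that did not were Arid3c, the pseudogene Dnmt3a-ps1 and Kdm6bos, an antisense transcript at the Kdm6b gene, which peaked at 2.39, 0.662 and 0.30 CPM.

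RNA came from TVZ neuroglial progenitors (the TVZ is the zone along the third ventricle of the brain) of untreated Nestin-CFPnuc mice on a C57/BL6 background, taken on postnatal day 1. In these mice the Nestin promoter drives a cyan fluorescent protein (CFP), so a Nestin+ cell is one in which that promoter had been active. Sorting on CFP and on CD133, a surface protein of ventricular progenitors encoded by Prom1, gave 3 populations with 3 libraries each: CD133+Nestin+, Nestin+ and CD133+. The labels leave unsaid whether a population named for 1 marker was negative for the other, and whether libraries came from separate animals. The p-values therefore cover the spread among these libraries, part of which may be technical. Every library also carries a sort number from 1 to 3, equal to a passage number in the labels, and each sort gave 1 library of each population.

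Chromatin modifiers add or remove methyl and acetyl groups on histones, or methyl groups on DNA, and remodellers use ATP to slide or evict nucleosomes. In neural progenitors they hold neuronal and glial genes closed or ready for use, and several subunits are exchanged for others as progenitors turn into neurons. Writers, erasers and remodellers are therefore usually read as sets, since a complex can keep its amount while one subunit replaces another.

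Depth was alike in all libraries: 1 read corresponded to 0.0285 to 0.0344 CPM and 3 reads to 0.0857 to 0.103 CPM. The share of the CPM total that fell on the listed genes differed between sorts, at 87.3% to 87.6% in the 3 libraries of sort 1 and 65.9% to 81.0% in the other 6. The 97 genes together summed to 3681, 5161 and 4419 CPM in CD133+Nestin+ libraries 1, 2 and 3, 3736, 4543 and 4773 CPM in Nestin+ libraries, and 3373, 3915 and 4029 CPM in CD133+ libraries. In each population the sum was lowest in sort 1, and CD133+Nestin+ replicate 2 had the highest sum of all. That library stood apart, so counts are also given without it. It held the highest value of 28 of the 94 genes tested, a larger share than the 17.1% of all genes tested. It held the lowest value of 19 of the 94, a smaller share than the 33.2% of all genes tested. In bulk RNA, fewer cells of a type and less RNA per cell cannot be told apart.

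Set per kilobase of exon, so that genes of unlike length can be compared, the levels ordered the classes as follows. Prmt2, an arginine methyltransferase, had the highest mean of the arginine methyltransferases at 36.8 CPM per kilobase, and Smarcb1, a core subunit of the SWI/SNF-type BAF complex, led the BAF and PBAF subunits at 32.4. Hdac3, the deacetylase of the NCoR and SMRT corepressor complexes, led the histone deacetylases at 25 CPM per kilobase, and Kdm6b, which removes the Polycomb methyl mark from histone H3, led the lysine demethylases at 21.9. Chd4, the NuRD remodeller, led the CHD class at 14.1, Kmt2e the MLL and SET1 class at 9.45, Arid4a, a partner of the retinoblastoma protein and the Sin3 corepressor, the remaining ARID proteins at 6.87, and Dnmt3a, which sets new DNA methylation, the DNA methyltransferases at 6.65 CPM per kilobase. The lower classes were led by Setd3 at 5.94, Smarca5 (the ISWI ATPase) at 4.94, Ezh2 (the Polycomb methyltransferase of dividing cells) at 4.40 and Tet2 (a dioxygenase that oxidises methylated cytosine) at 3.54 CPM per kilobase. These levels span all 9 libraries and carry no test.

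Some related enzymes kept a fixed order in all 9 libraries, and others did not. Per kilobase, Ezh2 exceeded its relative Ezh1 in all 9 libraries, by 1.85 to 3.29 times in CD133+Nestin+, 1.81 to 2.62 times in Nestin+ and 1.34 to 1.53 times in CD133+ libraries. The catalytic ATPase Smarca4 (Brg1) exceeded Smarca2 (Brm) by 3.06 to 11.2 times, Hdac1 exceeded Hdac2 by 1.85 to 4.65 times and Kdm6b exceeded Kdm6a by 3.35 to 19.9 times over the 9 libraries. Dnmt1, which copies methylation after replication, and Dnmt3a had no fixed order, with a ratio of 0.353 to 1.62. Tet2 and Tet3 had no fixed order against Tet1 either, with ratios of 0.470 to 3.41 and 0.607 to 1.55. Dnmt3b stayed low, between 0.932 and 3.74 CPM, and shares sequence with Dnmt3c, at 0.395 to 1.70 CPM, so that reads of this pair, like those of Smarca5-ps and Smarce1-ps1 and their parent genes, may have been split between copies.

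**Figure D1:**
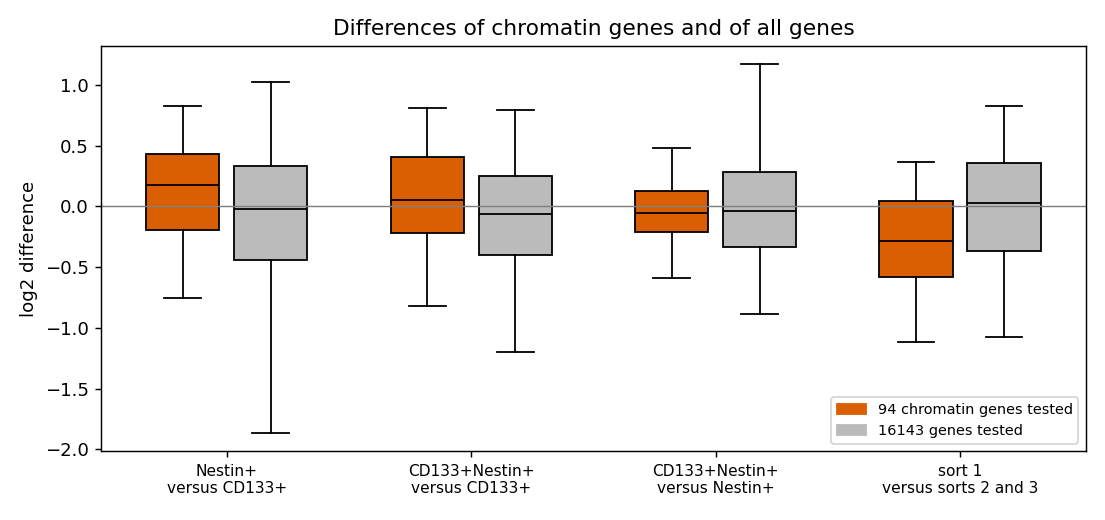
log2 differences of the 94 chromatin genes tested and of all 16143 genes tested, in the 3 population comparisons and in sort 1 against sorts 2 and 3, on the log2(CPM + 1) scale. Boxes span the 25 to 75 percentiles with the median as a line, and whiskers the 5 to 95 percentiles. The median of the chromatin genes lay at 0.17, 0.05 and -0.05 in the population comparisons and at -0.28 in sort 1.

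Few of these genes separated the populations. In Nestin+ against CD133+ cells, limma with Benjamini-Hochberg adjustment over all 16143 genes called 3 of 94, 1 higher and 2 lower in Nestin+, or 3.19%, where it called 11.9% of all genes tested (2.45% higher and 9.42% lower). In CD133+Nestin+ against CD133+ it called 1 of 94, a gene lower in CD133+Nestin+ (2.42% of all genes, 2.12% lower), and in CD133+Nestin+ against Nestin+ it called 0 of 94 (3.13% of all genes), with 3 genes at an unadjusted p under 0.05. The first 2 of these comparisons share the CD133+ libraries. The median log2 difference of the 94 genes was 0.17 in Nestin+ against CD133+ (-0.02 over all genes tested), 0.05 in CD133+Nestin+ against CD133+ (-0.06) and -0.05 in CD133+Nestin+ against Nestin+ (-0.04).

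The gene with the smallest p was Arid3a (chr10:79927043-79955018, + strand, mm10), an ARID-domain transcription factor known as Bright for its role at the immunoglobulin heavy chain gene of B cells. It read 0.520, 0.928 and 0.554 CPM in CD133+Nestin+ libraries, 0.687, 0.815 and 0.377 CPM in Nestin+ libraries, and 6.25, 5.36 and 4.15 CPM in CD133+ libraries. All 3 CD133+ libraries lay above the other 6, and Arid3a passed the filter only through them, so that any gene of this shape had to differ and its calls carry little weight. It fell in Nestin+ by 1.94 ± 0.29 (log2 ± SE) relative to CD133+, with an adjusted p of 0.0014 in limma, and in CD133+Nestin+ by 1.90 ± 0.29, with an adjusted p of 0.0059. With no filter on low values the adjusted p was 0.0011 and 0.0046, and a filter of 5 CPM removed the gene.

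Arid5a (chr1:36307733-36324029, + strand), an ARID protein that binds and stabilises inflammatory mRNAs such as that of interleukin 6, read 17.0, 26.6 and 29.6 CPM in CD133+Nestin+ libraries, 12.8, 12.0 and 30.1 CPM in Nestin+ libraries, and 38.0, 47.2 and 50.1 CPM in CD133+ libraries. The 3 CD133+ libraries were again the highest. It fell in Nestin+ by 1.37 ± 0.36 relative to CD133+ (adjusted p = 0.030 in limma), and the difference of -0.89 ± 0.36 in CD133+Nestin+ did not pass (adjusted p = 0.32). The Nestin+ call ended without Nestin+ replicate 1 or 2 or CD133+ replicate 2 or 3, where the adjusted p reached 0.134 at most, and when libraries were scaled to the total of the listed genes. Kdm4d, a histone H3 demethylase, showed the same order of groups at low levels, with 1.61, 0.795 and 1.60 CPM in CD133+Nestin+, 1.23, 1.32 and 1.33 CPM in Nestin+ and 3.70, 3.23 and 2.70 CPM in CD133+ libraries, but did not pass in Nestin+ (-0.87 ± 0.29, adjusted p = 0.080).

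Microglial and endothelial genes moved with these 3 genes. All 10 microglial markers were lower in both Nestin+ and CD133+Nestin+ than in CD133+ cells, and their summed level was 41.3 to 324 CPM in CD133+Nestin+, 36.3 to 107 CPM in Nestin+ and 935 to 2741 CPM in CD133+ libraries. All 5 measured endothelial markers were lower in both as well, with sums of 27.0 to 44.6, 15.4 to 25.5 and 451 to 887 CPM in the same order, and no marker was at 0 in any library. The part of these cells in the levels of Arid3a, Arid5a and Kdm4d was not tested.

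Chd5 (chr4:152338651-152390194, + strand), a remodeller of neurons and a tumour suppressor deleted in human neuroblastoma, was the gene called in the other direction. The 300 bases around its start are rich in CpG and hold 3 GC boxes, the sites of Sp-family factors. The RefSeq window (GRCm38.p6, chr4:152338401-152338700, + strand, 5′ to 3′, capitals marking GGGCGG or its complement CCGCCC) is:
Chd5: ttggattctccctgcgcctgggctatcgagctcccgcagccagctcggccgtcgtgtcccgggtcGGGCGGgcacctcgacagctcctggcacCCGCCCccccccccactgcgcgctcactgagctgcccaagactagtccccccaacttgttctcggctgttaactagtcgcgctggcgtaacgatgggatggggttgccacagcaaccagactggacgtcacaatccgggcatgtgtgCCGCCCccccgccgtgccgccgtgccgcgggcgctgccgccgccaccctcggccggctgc
Chd5 read 11, 15 and 16.8 CPM in CD133+Nestin+ libraries, 8.45, 16.7 and 14.2 CPM in Nestin+ libraries, and 4.34, 4.83 and 5.37 CPM in CD133+ libraries. Every CD133+Nestin+ and Nestin+ library lay above all 3 CD133+ libraries. It rose in Nestin+ by 1.23 ± 0.32 relative to CD133+ (adjusted p = 0.029 in limma), while 1.37 ± 0.32 in CD133+Nestin+ missed the threshold (adjusted p = 0.053) and passed with the sort number as a block (adjusted p = 0.016). The Nestin+ call ended without Nestin+ replicate 2 or 3 or any 1 of the CD133+ libraries, where the adjusted p reached 0.136 at most, and with scaling to the listed genes. In Nestin+ against CD133+ neuronal markers moved with Chd5, with 3 of 8 called higher, as were 5 of 6 oligodendrocyte precursor markers. Neuronal sums were 71.1 to 166 CPM in CD133+Nestin+, 180 to 232 CPM in Nestin+ and 37.3 to 118 CPM in CD133+ libraries. Oligodendrocyte precursor sums were 113 to 451, 577 to 1067 and 59.9 to 139 CPM in the same order. In CD133+Nestin+ against CD133+, 0 of 8 neuronal and 1 of 6 oligodendrocyte precursor markers were called higher. Against Nestin+, 3 of 6 oligodendrocyte precursor markers were called lower in CD133+Nestin+. The part of these markers in the level of Chd5 was not tested.

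**Figure D2:**
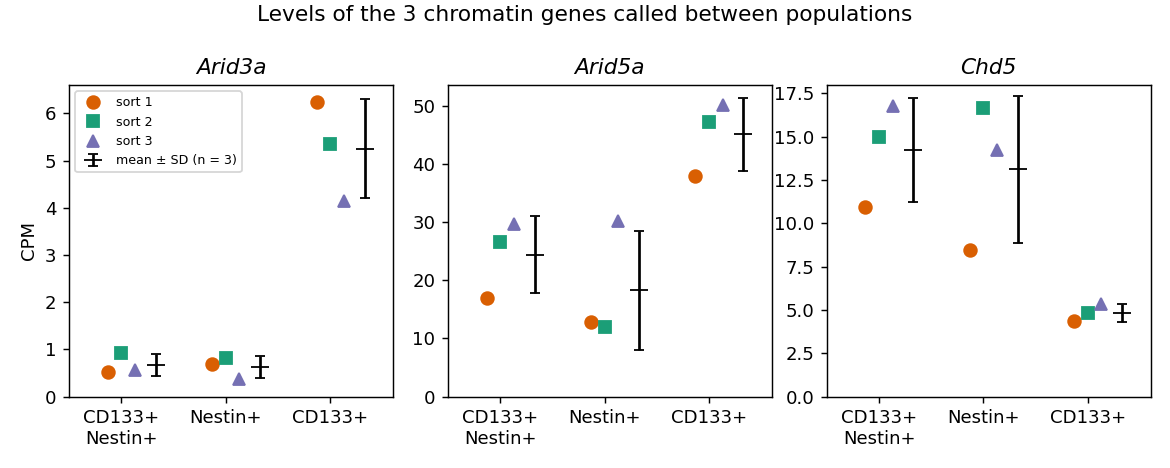
CPM by library and population of Arid3a, Arid5a and Chd5, with sorts as symbols and the mean ± SD of 3 libraries beside them. Arid3a lay between 0.377 and 0.928 CPM in the 6 CD133+Nestin+ and Nestin+ libraries and between 4.15 and 6.25 CPM in CD133+ libraries, and Chd5 lay between 8.45 and 16.8 CPM in the 6 libraries and between 4.34 and 5.37 CPM in CD133+ libraries.

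Libraries of the same sort deviated together, and taking the sort number into the model as a block raised the count in Nestin+ against CD133+ to 9 of 94, 5 higher and 4 lower, where 19.2% of all genes were called (6.06% higher and 13.1% lower). The 6 added genes were Chd7, a remodeller of neural and oligodendrocyte progenitors and the gene of human CHARGE syndrome, at 1.02 ± 0.25 (adjusted p = 0.019 in limma), Kmt2c, an enhancer methyltransferase, at 0.86 ± 0.23 (0.028), Hdac11, the class IV deacetylase, at 0.79 ± 0.21 (0.027), Prmt3, a methyltransferase of ribosomal protein, at 1.09 ± 0.29 (0.028), Kmt5a, which methylates histone H4, at -0.74 ± 0.22 (0.045), and the SET-domain protein Setd4 at -0.90 ± 0.28 (0.048). The 4 higher genes, Chd7, Kmt2c, Hdac11 and Prmt3, did not overlap between the groups, as held for 20.2% of the 94 and 11.8% of all genes tested. These 4 were called on the same libraries, and the lower genes Kmt5a and Setd4 did overlap. Hdac11 read 20.4, 17.5 and 23.3 CPM in CD133+Nestin+, 21.8, 18.7 and 26.4 CPM in Nestin+ and 14.0, 10.1 and 13.4 CPM in CD133+ libraries, and Prmt3 read 8.27, 14.4 and 6.73, 6.66, 12.4 and 10.8, and 3.03, 4.53 and 4.72 CPM in the same order. Chd7 read 40.4, 104 and 56.6 CPM in CD133+Nestin+, 46.2, 123 and 91.6 CPM in Nestin+ and 32.9, 39.9 and 45.8 CPM in CD133+ libraries, and the nearest values of Nestin+ and CD133+ were 46.2 and 45.8 CPM. Kmt2c read 56.0, 83.9 and 60.8 CPM in CD133+Nestin+, 73.1, 123 and 96.0 CPM in Nestin+ and 52.8, 44.2 and 61.2 CPM in CD133+ libraries. Without CD133+Nestin+ replicate 2 the block called 21 genes, 13 higher and 8 lower (30.5% of all genes, 11.4% higher and 19.0% lower), and the model with no block called 8 (17.1%). With the block, CD133+Nestin+ against CD133+ gave 2 genes, Arid3a and Chd5 (4.81% of all genes), and CD133+Nestin+ against Nestin+ gave 0 (6.09%). The F test over the 3 populations called 2 genes, Arid3a and Chd5 (9.5% of all genes), and 5 with the block (16.5%).

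CD133+Nestin+ and Nestin+ cells were thus not separated by a called gene. The gene nearest to the threshold in the model with no block was Chd1l, a remodeller recruited to poly-ADP-ribose at DNA damage, with 30.5, 30.9 and 44.0 CPM in CD133+Nestin+, 18.2, 16.6 and 20.3 CPM in Nestin+ and 24.5, 45.2 and 30.6 CPM in CD133+ libraries. All CD133+Nestin+ libraries lay above all Nestin+ libraries, and the difference of 0.89 ± 0.28 did not pass (adjusted p = 0.15 in limma). It passed only with the block and without CD133+Nestin+ replicate 2 (1.05 ± 0.25, adjusted p = 0.033, where 8.2% of all genes were called). The other genes under an unadjusted p of 0.05 were Arid5b, a partner of the demethylase Phf2, at -0.73 ± 0.28, and Setd5 at -0.85 ± 0.33 (adjusted p = 0.25 and 0.28). With the block Setd5 was the nearest, at an adjusted p of 0.062, and Chd1l followed at 0.075.

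In Nestin+ against CD133+, 64.9% of the 94 genes had a difference above 0, against 48.7% of all genes tested. By class, all 7 genes of the MLL and SET1 class lay above 0 (median 0.54, 0 called in limma, 1 at an unadjusted p under 0.05). All 7 also lay above 0 in CD133+Nestin+ against CD133+ (median 0.39, 0 called), where 44.6% of all genes did. In CD133+Nestin+ against Nestin+ 6 of the 7 lay below 0. Most of that class write methylation of histone H3 at promoters and enhancers. All 7 arginine methyltransferases lay above 0 in Nestin+ against CD133+ as well (median 0.27, 0 called, 1 at an unadjusted p under 0.05), and 4 of 7 in CD133+Nestin+ against CD133+. Both held under median centring, quantile normalization and scaling to the listed genes. These scalings raised the share of all genes above 0 to 58.6%, 59% and 52.4%. They could thus hardly have moved these genes below 0, and add no support. The CHD class had 8 of 10 above 0 with 1 called, and the remaining ARID proteins had 4 of 6 below 0 with 2 called. For the BAF subunits, the lysine demethylases and the deacetylases, 6 of 12, 11 of 17 and 7 of 11 lay above 0 with 0 called in each (1, 2 and 1 at an unadjusted p under 0.05). The block changed these counts to 1 for the MLL and SET1 class (Kmt2c), 1 for the arginine methyltransferases (Prmt3), 1 for the deacetylases (Hdac11), 2 for the CHD class (Chd5 and Chd7) and 2 for the other SET methyltransferases (Kmt5a and Setd4). Over all 94, 19 genes lay higher in Nestin+ than in CD133+ with no overlap of libraries (20.2%, against 11.8% of all genes) and 5 lay lower (5.32%, against 21.1%). The genes lower with no overlap were Arid1b, Arid3a, Arid5a, Chd1l and Kdm4d. In CD133+Nestin+ against CD133+, 11 lay higher with no overlap (11.7%, against 6.56% of all genes) and 9 lower (9.57%, against 10.9%). In CD133+Nestin+ against Nestin+, Arid1b and Chd1l lay higher with no overlap (2.13%, against 11.1%) and Arid5b, Chd4 and Prmt6 lower (3.19%, against 6.21%).

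The authors' deposited table, with its own p-values over 18329 genes, called the same 3 genes in Nestin+ against CD133+ at a step-up false discovery rate under 0.05 (9.07% of all genes): Arid3a with a ratio of 0.119, Arid5a with 0.406 and Chd5 with 2.71. For CD133+ and CD133+Nestin+ the authors' deposited table gave the ratio as CD133+ over CD133+Nestin+, and Arid3a alone passed, at 7.87 (0.955% of all genes). For Nestin+ over CD133+Nestin+ the authors' deposited table called 0 (2.59%). These ratios are of mean CPM, so for low genes such as Arid3a they are larger than the log2(CPM + 1) differences given above. They come from the same 9 libraries and add no independent support.

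Genes that work beside these enzymes were examined in 11 lists of partners, with 124 genes tested. Limma called 5 of them in Nestin+ against CD133+, 1 higher and 4 lower (4.03%, against 11.9% of all genes), and 10 with the block (8.06%, against 19.2%). It called 0 in CD133+Nestin+ against CD133+ (7 at an unadjusted p under 0.05, and 2.42% of all genes called) and 1 in CD133+Nestin+ against Nestin+ (0.806%, against 3.13%). In Nestin+ against CD133+, Dpy30, a core subunit of the MLL and SET1 complexes, averaged 82.4 ± 11.3 CPM in Nestin+ and 217 ± 57.8 CPM in CD133+ (SD, n = 3 each), and fell by 1.37 ± 0.28 (adjusted p = 0.0088 in limma), as the only called gene of 10 in its list. The AAA ATPases Ruvbl1 and Ruvbl2, shared by the INO80 and SRCAP remodellers and also needed to assemble the dynein arms of cilia, fell by 1.26 ± 0.30 and 2.23 ± 0.30. Ruvbl2 averaged 218 ± 44.8 CPM in CD133+Nestin+, 80.5 ± 21.8 CPM in Nestin+ and 381 ± 105 CPM in CD133+ libraries, and was higher in CD133+Nestin+ than in Nestin+ by 1.44 ± 0.30 (adjusted p = 0.028). Ependymal markers moved with them: all 8 were lower in Nestin+ than in CD133+ and all 8 higher in CD133+Nestin+ than in Nestin+, with sums of 1130 to 1500 CPM in CD133+Nestin+, 205 to 254 CPM in Nestin+ and 1347 to 2711 CPM in CD133+ libraries, and their part in the levels of Dpy30 and the Ruvbl genes was not tested. Dpf1, the BAF subunit of neurons, rose in Nestin+ by 0.99 ± 0.25 relative to CD133+ (16.0 ± 2.31 against 7.53 ± 0.304 CPM, adjusted p = 0.028), and Mecom, a zinc finger protein of the PRDM family, fell by 2.48 ± 0.45 (0.916 ± 0.263 against 10.8 ± 5.69 CPM, adjusted p = 0.0045). The lists of Polycomb PRC1 subunits, NuRD partners, histone acetyltransferases and corepressor partners had 0 genes called by limma in all 3 population comparisons and between sorts. Of their 48 genes tested, 1 had an unadjusted p under 0.05 in each comparison with CD133+, 4 in CD133+Nestin+ against Nestin+ and 9 between sorts.

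The genes called between sorts were all lower in sort 1. In a model with population and sort, 15 of 94 genes were called between sort 1 and the mean of sorts 2 and 3. This count was 0 without Nestin+ replicate 1 and 1 without CD133+Nestin+ replicate 1 (1.2% and 1.44% of all genes called). The 15 are 16.0% of the 94 genes, near the 13.4% of all genes that were called (7.85% lower and 5.58% higher). The median log2 difference was -0.28 for the 94 genes and 0.03 for all genes tested, and 68 of the 94 lay below 0. The 3 libraries of a sort share that sort, so these p-values cover the spread between libraries and not between sorts, and the sort and the passage of the same number cannot be told apart.

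Tet2 (chr3:133463679-133545139, - strand) was the gene with the smallest p. In the order of sorts 1, 2 and 3 it read 21.5, 103 and 71.1 CPM in CD133+Nestin+, 25.8, 83.7 and 101 CPM in Nestin+ and 25.8, 47.4 and 58.3 CPM in CD133+ cells. The 3 libraries of sort 1 lay within 21.5 to 25.8 CPM and below the other 6, which spanned 47.4 to 103 CPM. Tet2 fell in sort 1 by 1.58 ± 0.22 (adjusted p = 0.0048 in limma), and the call ended only without Nestin+ replicate 1 (highest adjusted p 0.060). Its relatives were not called: Tet1 read 41.9, 42.3 and 44.4 CPM in sort 1 and 27.1 to 44.1 CPM in sorts 2 and 3, and Tet3 read 27.5 to 37.9 CPM in sort 1 and 29.5 to 53.4 CPM in sorts 2 and 3. Per kilobase, Tet2 stood at 0.470 to 0.558 of Tet1 in the libraries of sort 1 and at 1.14 to 3.41 of Tet1 in the others.

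**Figure D3:**
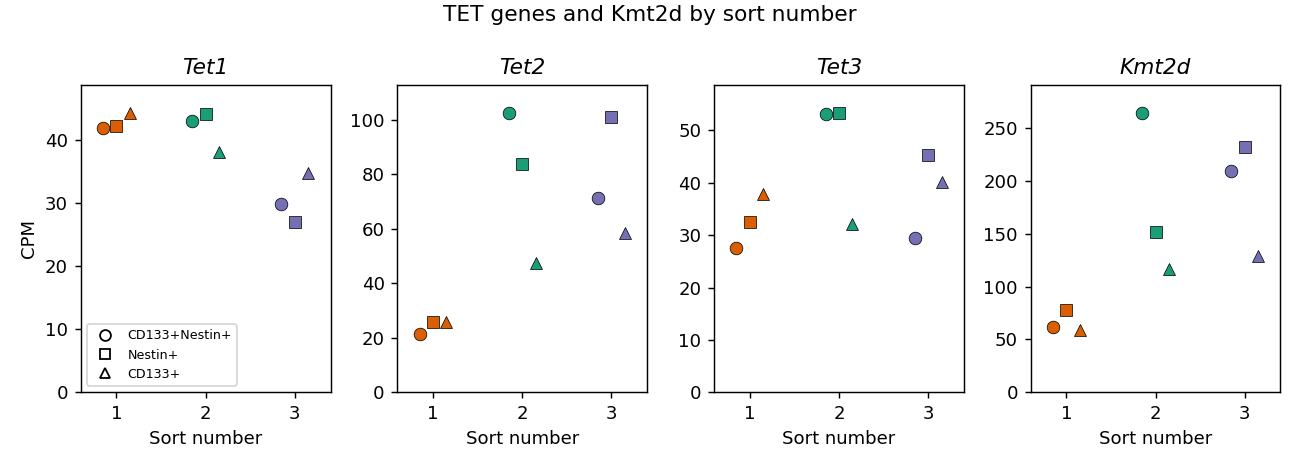
CPM of Tet1, Tet2, Tet3 and Kmt2d against sort number, with 1 point for each population in each sort. Tet2 lay within 21.5 to 25.8 CPM in sort 1 and at 47.4 to 103 CPM in sorts 2 and 3, while Tet1 in sort 1 lay at 41.9 to 44.4 CPM, and Kmt2d lay at 58.9 to 77.7 CPM in sort 1 and 117 to 265 CPM in the others.

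Kmt2d (chr15:98831669-98871204, - strand), the enhancer methyltransferase altered in human Kabuki syndrome, followed the same order. It read 61.6, 265 and 209 CPM in sorts 1, 2 and 3 of CD133+Nestin+, 77.7, 151 and 233 CPM in Nestin+ and 58.9, 117 and 129 CPM in CD133+ cells, with no overlap between sort 1 and the others. It fell in sort 1 by 1.41 ± 0.21 (adjusted p = 0.0059 in limma). The RefSeq windows of 300 bases around the starts of both genes are shown because these genes had the smallest p-values. The window of Tet2, at chr3:133544341-133544640, surrounds a RefSeq start 749 bases inside the GENCODE start and does not reach the GENCODE start. That of Kmt2d lies at chr15:98871156-98871455. Both are on the - strand of GRCm38.p6, written 5′ to 3′ with GGGCGG or CCGCCC in capitals.
Tet2: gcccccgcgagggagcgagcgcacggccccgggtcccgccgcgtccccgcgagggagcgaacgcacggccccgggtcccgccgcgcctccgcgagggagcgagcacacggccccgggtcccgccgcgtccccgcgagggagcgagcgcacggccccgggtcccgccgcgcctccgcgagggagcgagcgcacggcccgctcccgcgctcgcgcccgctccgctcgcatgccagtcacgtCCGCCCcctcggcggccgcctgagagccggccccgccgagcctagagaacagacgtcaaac
Kmt2d: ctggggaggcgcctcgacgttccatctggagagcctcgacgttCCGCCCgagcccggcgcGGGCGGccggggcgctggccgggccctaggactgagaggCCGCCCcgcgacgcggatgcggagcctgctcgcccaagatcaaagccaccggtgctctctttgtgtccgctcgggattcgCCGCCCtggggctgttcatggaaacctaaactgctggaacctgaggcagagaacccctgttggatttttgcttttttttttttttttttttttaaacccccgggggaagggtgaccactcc
The windows hold 1 GC box in Tet2 and 4 in Kmt2d, with 57 and 27 CpG dinucleotides. RefSeq windows were found for 73 of the 97 genes, and GGGCGG on either strand was in 69.9% of them, against 35.7% of 32851 windows of the same length. The 73 genes gave 1 window each, while the 32851 windows were not limited to 1 per gene or to genes tested here. The 2 sets are therefore unlike. The median window of the 73 genes had 22 CpG, against 7 over all windows. CCAAT was in 41.1% (37.4% of all), CCGGAAG in 13.7% (8.86%), TATAAA in 6.85% (13.6%) and TGACGTCA in 1.37% (1.79%), each on either strand. These matches describe letters in a window and carry no test.

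The other methyltransferases called in sort 1 were Kmt2a (-1.02 ± 0.21) and Kmt2b (-1.35 ± 0.38), the MLL enzymes of promoters, and Setd4 (-0.86 ± 0.24). Kmt2a read 32.1 to 39.7 CPM in sort 1 and 50.8 to 128 CPM in sorts 2 and 3, and Kmt2b 7.04 to 9.22 CPM and 11.2 to 51.8 CPM. All 7 MLL and SET1 genes and all 9 other SET methyltransferases lay below 0 in sort 1, with medians of -0.58 and -0.47. Below 0 lay 72.3% of the 94 genes and 48% of all genes tested. Under median centring or quantile normalization 8 of the 9 other SET genes lay below 0. Among the erasers, Kdm2a, a demethylase that binds CpG islands, fell by 1.11 ± 0.18 (24.0 to 35.2 CPM in sort 1 and 56.4 to 81.1 CPM in sorts 2 and 3), Kdm7a by 0.86 ± 0.22 and the class IIa deacetylase Hdac4 by 0.81 ± 0.23. Kdm7a and Hdac4 overlapped between the sorts when populations were pooled.

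Among the remodellers, 4 of 10 CHD genes were called. Chd1, which binds methylated histone H3 at active promoters, fell by 1.13 ± 0.21 in sort 1 (9.79 to 13.4 CPM, against 19.6 to 43.5 CPM in sorts 2 and 3), and Chd2 fell by 1.06 ± 0.20 (20.1 to 24.6 CPM, against 35.5 to 66.4 CPM). Chd7 fell by 0.82 ± 0.22 and Chd8, a gene altered in human autism, by 0.58 ± 0.16. Of the ARID proteins, Arid3b fell by 1.25 ± 0.27, Arid4b by 0.94 ± 0.19 and Arid4a by 0.83 ± 0.19, the last 2 being Sin3 complex subunits. Limma called 0 of 12 BAF and PBAF subunits and 0 of 7 arginine methyltransferases, with 5 and 2 at an unadjusted p under 0.05. Smarcb1 read 322, 294 and 288 CPM in sort 1 of CD133+Nestin+, Nestin+ and CD133+ cells and 181 to 269 CPM in sorts 2 and 3, above all 6 others, at 0.37 ± 0.16 (adjusted p = 0.14), and 5 of 7 arginine methyltransferases lay above 0 (4 of 7 with scaling to the listed genes).

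**Figure D4:**
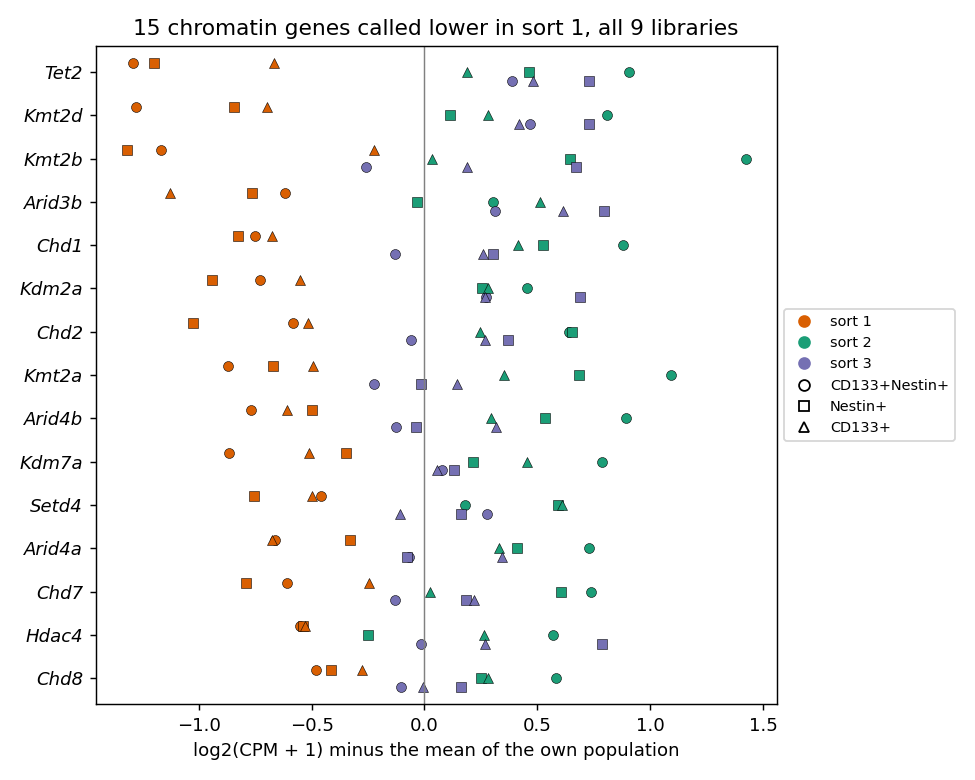
Level of each of the 15 genes called in sort 1, as log2(CPM + 1) minus the mean of the library's own population, with sorts as colours and populations as symbols. All 3 libraries of sort 1 lie below their population mean for every gene. On the CPM scale sort 1 lay below the other 6 libraries for 10 of the 15, against 9.0% of all genes tested. The 15 genes were called on this difference in the same libraries, so neither pattern adds support.

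Read without a model, sort 1 was the lowest library of its population in all 3 populations for 32 of 94 genes (34.0%, against 17.0% of all genes) and the highest for 4 (4.26%, against 17.7%), which were Prmt2, Prmt5, Prmt7 and Smarcb1. Sort 1 lay below all 6 other libraries for 16 genes (17.0%, against 9.0% of all genes) and above them for 1, Smarcb1 (8.62%). The F test over the 3 sorts called 9 of 94 (8.77% of all genes).

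The count of 15 moved with single libraries. It was 0 without Nestin+ replicate 1 (22 at an unadjusted p under 0.05, and 1.2% of all genes called) and 1 without CD133+Nestin+ replicate 1 (1.44%). It was 7 without Nestin+ replicate 3 (5.48% of all genes) or CD133+ replicate 3 (6.92%). It was 8 without CD133+ replicate 1 (5.96%) and 24 without CD133+Nestin+ replicate 2 (21.5%). Kmt2d, Kdm2a, Chd1, Chd2 and Kmt2a lost the call only without replicate 1 of CD133+Nestin+ or of Nestin+, and the remaining 9 genes lost it in 3 to 8 of the 9 fits, with every difference still below 0. Median centring called 11 (10 lower and 1 higher, Prmt2), or 11.7%, where 16.1% of all genes were called. Quantile normalization called 11, all lower (11.7%, against 7.63%), and scaling to the listed genes 26, all lower (27.7%, against 15%). Over all genes tested these scalings moved the median difference to 0.10, 0.05 and -0.17, and the split of calls, 900 higher and 1268 lower as deposited, to 1520 and 1086 under median centring and 401 and 2020 under scaling to the listed genes.

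Other measures moved with the sort. Of 10 microglial markers 9 were higher in sort 1, with sums in sorts 1, 2 and 3 of 324, 74.8 and 41.3 CPM in CD133+Nestin+, 107, 36.3 and 45.6 CPM in Nestin+ and 2741, 935 and 1259 CPM in CD133+ cells. Of 8 neural stem markers 3 (Slc1a3, Vim and Fabp7) were higher in sort 1, with sums of 9118, 3758 and 6819 CPM in CD133+Nestin+, 13261, 7573 and 7618 CPM in Nestin+ and 6431, 2189 and 4355 CPM in CD133+ cells, highest in sort 1 in each. Called higher in sort 1 were also 2 of 8 neuronal markers (sums of 118 to 232 CPM in sort 1 and 37.3 to 214 CPM in sorts 2 and 3), 2 of 6 oligodendrocyte precursor markers (126 to 1012 and 59.9 to 1067 CPM) and 1 of 10 replication markers, and 1 of 8 ependymal markers was lower. The share of CPM on the listed genes was likewise highest in sort 1 in each population. The part of any of these in the chromatin genes was not tested.

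Exon length also went with the sort difference. Across the 94 genes Spearman's rho between exon length and log2 difference was -0.42, a description over genes that share libraries. The 15 called genes had a median exon length of 14300 bases, against 6678 bases for the 79 not called. Of the 32 longest genes 30 lay below 0 and 9 were called (median -0.43), of the 31 in the middle 20 lay below 0 and 4 were called (-0.33), and of the 31 shortest 18 lay below 0 and 2 were called (-0.09). Over all genes tested 13.4% were called. Exon length was set against the sort difference in the 94 genes only, so the trend among all genes tested is not known. The part of length in the sort difference was not tested.

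**Figure D5:**
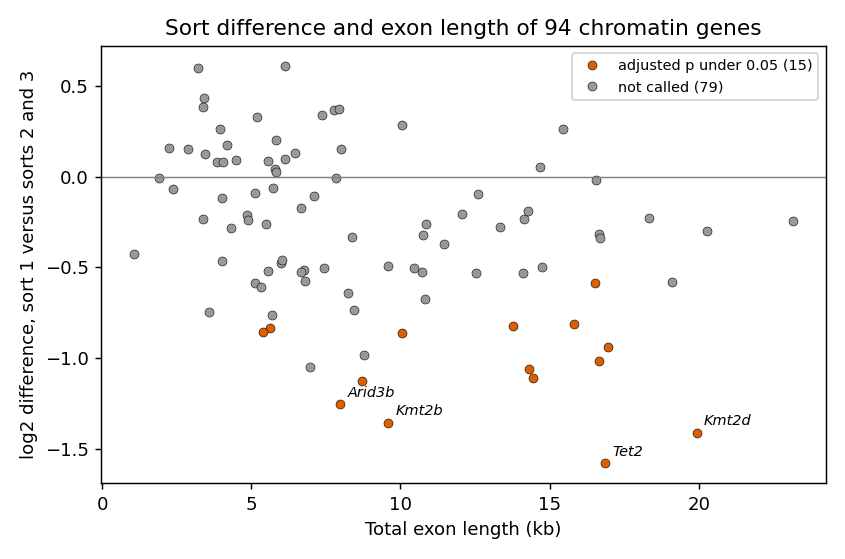
log2 difference of sort 1 from the mean of sorts 2 and 3 against exon length for the 94 chromatin genes, in kilobases, with the 15 called genes marked. The median difference was -0.09 in the shortest, -0.33 in the middle and -0.43 in the longest of 3 length classes.

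Of the 124 partner genes 9 were called in sort 1, all lower (7.26%, against 7.85% of all genes lower and 13.4% in either direction). They were Dot1l, the methyltransferase of the histone H3 core (-1.41 ± 0.26), Nsd3 (-0.86 ± 0.18), the ISWI partners Baz2a (-0.93 ± 0.25) and Baz2b (-1.17 ± 0.18), the remodeller ATPase Srcap (-0.93 ± 0.25), the PRC2 partners Mtf2 (-0.89 ± 0.23) and Aebp2 (-0.69 ± 0.19), the deacetylase Sirt7 (-0.91 ± 0.22) and Gadd45g (-0.98 ± 0.27), at adjusted p-values of 0.0061 to 0.043 in limma. Dot1l read 13.3, 52.4 and 39.0 CPM in sorts 1, 2 and 3 of CD133+Nestin+, 10.6, 39.3 and 47.4 CPM in Nestin+ and 26.4, 50.1 and 33.3 CPM in CD133+ cells, lowest in sort 1 in each. An interaction of population with sort 1, added to the model with population and sort and leaving 2 residual degrees of freedom, was called by limma for 0 of 94 genes (0 at an unadjusted p under 0.05, and 0% of all genes called), which does not show that the sort difference was alike in the populations.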

How the data were processed

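The 9 libraries were made from total RNA and read on an Illumina HiSeq, per the labels. STAR 2.5.3a, bcl2fastq, limma, Partek 8.0 and the mm10 build are named in the submitters' processing notes. The counting method and its use of strand were not given in the sources used here. Antisense genes and near-identical copies are therefore uncertain. The deposited table holds normalized values, taken from their range and low steps to be CPM, to which the authors had added an offset of 0.0001. Between 45.5% and 56.1% of low values were whole reads within 0.02 reads, too few to work back to reads, and counts were not tested. A level of 3 reads covers counting error only. The authors' second deposited table lists, for each gene and pair of populations, a ratio of means, a p-value and its step-up adjusted false discovery rate.

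The 97 genes, the partner and marker lists and the tests were chosen with earlier results of these data known. Values were taken as log2(CPM + 1), which understates differences of low genes, for genes reaching 1 CPM in 3 libraries. Population means were fitted over all 9 libraries with limma 3.58.1 (R 4.3.3), trended and robust, leaving 6 residual degrees of freedom, and sorts with population as a covariate, leaving 4. Calls are Benjamini-Hochberg adjusted p under 0.05 over 16143 genes. Named genes were those called, up to 15 per comparison and direction, the highest per kilobase of each class, textbook pairs with Chd7, and up to 4 called partners per list, and others named were chosen after their values were seen. Deviations from population means correlated at 0.204 to 0.73 between libraries of the same number (9 pairs) and at -0.527 to 0.314 between others (18 pairs). The main population fit left out the sort number of the labels and so ignored this pairing. Only the replicate block took the number in as pairing libraries. The alternatives changed the filter (none, or 5 CPM), the pseudocount (0.1), the scaling (median centring, quantile normalization) or the libraries (each left out), or added the replicate block. The block without CD133+Nestin+ replicate 2, scaling to the listed genes and the interaction of population with sort 1 were added after seeing the data. The fits were tested on simulated data. Positions and exon lengths are from GENCODE on GRCm38 (mm10), promoter windows from RefSeq. Python 3.11.15 and matplotlib 3.10.9 drew the figures.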

Additional observations from a re-analysis of the deposited data

How the results depend on the processing

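Over the genes named from the tests, 202 of their called values stayed called and 89 lost the call under the alternatives, 61 uncalled values became called, and 0 reversed. Percentages in brackets below are the shares of all genes called. With the replicate block, members called numbered 9 in Nestin+ against CD133+ (19.2%), 2 in CD133+Nestin+ against CD133+ (4.81%) and 5 in the F test over populations (16.5%). Without CD133+Nestin+ replicate 2 as well they numbered 21 (30.5%), 2 (5%) and 13 (25.6%), with 1 in CD133+Nestin+ against Nestin+ (8.2%). Median centring gave 5 in Nestin+ against CD133+ (3 higher and 2 lower, 11.7%) and 2 in CD133+Nestin+ against CD133+ (2.4%), and quantile normalization 6 (12.8%) and 2 (2.37%). Median centring moved the median difference of all genes from -0.02 to 0.12 in Nestin+ against CD133+. Scaling to the listed genes gave 1 in Nestin+ against CD133+ (11.4%) and 1 in the F test over populations (8.8%). It gave 26 in sort 1 (15%) and 19 in the F test over sorts (9.29%). A filter of 5 CPM gave 1 in the F test over populations (10.7%). Leaving out 1 library gave 1 to 8 in Nestin+ against CD133+ (6.7% to 17.1%). The count was 8 without CD133+Nestin+ replicate 2 (17.1%), and 1 without Nestin+ replicate 2 (7.2%) or CD133+ replicate 2 (6.7%) or 3 (8.4%). Leaving out 1 library gave 1 to 3 in CD133+Nestin+ against CD133+ (0.811% to 2.91%), with 3 without CD133+Nestin+ replicate 1. It gave 0 to 0 in CD133+Nestin+ against Nestin+ (1.07% to 4.11%) and 1 to 3 in the F test over populations (5.34% to 12.9%). It gave 0 to 24 in sort 1 (1.2% to 21.5%) and 0 to 14 in the F test over sorts (0.192% to 15.2%). The causes were not tested. Levels near 3 reads, such as those of Kdm6bos, are limited by depth.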
